A study of Mus musculus with 6 samples.

Results

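The collagen genes of the mouse were followed in RNA sequencing of the stomach corpus, the acid-secreting and pepsinogen-secreting body of the stomach. Members were chosen by name: every row of the deposited table whose symbol is Col, a type number, a, and a chain number, which gave 44 of the 18988 rows. Values are FPKM, fragment numbers corrected for gene length and for library size, which allow levels to be set side by side between genes. The libraries came from 6 mice on the C57BL/6 background, 1 mouse per library. Of these, 3 were controls of genotype Ras;APC FF (replicates 1 to 3) and 3 were of genotype PGC;Ras;APC FF (replicates 4 to 6), so both groups share the Ras and APC FF components and differ by PGC. The latter are called the PGC mice or libraries from here on. The labels do not spell out PGC, Ras or FF, and give no promoter, age, sex or time after induction. The series' title speaks of gastric cancer induced in the corpus by successive oncogenic activation.

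Collagens are extracellular proteins built from 3 chains wound into a triple helix. Fibrillar collagens are trimmed outside the cell and assemble into the fibrils that give the lamina propria, submucosa and muscle wall their tensile strength. Collagen IV chains form the sheet-like network of the basement membrane under the epithelium and around vessels and muscle cells. The remaining types decorate fibrils, form beaded filaments or other networks, span the plasma membrane, or carry heparan sulphate chains in basement membrane zones. Fibroblasts make most fibrillar collagen of the gut, while endothelial, muscle and epithelial cells add basement membrane chains.

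Summed FPKM of the libraries ranged from 664821 to 804774, and the number of reads behind them is unknown. The values were tested as log2(FPKM + 1) with limma, two-sided, for the 11857 genes with at least 1 FPKM in at least 3 libraries, with Benjamini-Hochberg adjustment over all of them and a threshold of 0.05. An exact test of 3 against 3 mice cannot go below p = 0.1, so calls rest on the spread that limma shares across genes. Over all tested genes the median log2 change came to 0.26 on this scale and to -0.0027 after median-of-ratios scaling, so changes of collagens are also given relative to the 0.26. Replicate 6 stood apart: Pgc, Clps and Pla2g1b, which encode digestive proteins, took 6.36% of its summed FPKM and 31.7% to 48.1% of the others. It was the highest library for 68.4% of all tested genes and for 16 of 25 tested collagens. Control replicate 3 alone showed the Y-linked Eif2s3y (13.15 FPKM) and had Xist at 0, so by these genes sex was not balanced between the groups. It was the lowest library for 15 of 25 tested collagens against 26.7% of all tested genes. The parietal cell proton pump genes Atp4a and Atp4b, which define the acid-secreting corpus, were at 428 FPKM or more in every library. Atp4a had 2353 to 2884 FPKM in the controls, against 1768, 2356 and 428 in replicates 4 to 6. Atp4b had 4068 to 4614 against 3131, 3849 and 723. The sum of 6 gastric gland genes, mainly Pgc and Tff1, was 217100 to 238700 and 80100 to 151300 FPKM. Of the 6, 2 were lower and 1 (Muc6) higher in every PGC library, beside 5.47% and 42.7% of all tested genes, and 0 passed. Gene-level FPKM cannot tell altered alleles from unaltered ones and do not check the genotypes. Nothing beyond the animal is said of the replicates, so p-values measure the spread among these mice.

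No collagen gene passed the threshold. Of the 44 members, 25 passed the filter on low values and limma called 0 of 25 higher and 0 lower, where 0.11% of all tested genes were called higher, 0.0422% lower and 0.152% in either direction. At an unadjusted limma p under 0.05 there were 10 of 25, against 35.4% of all tested genes. Of these, 9 were higher and 1 lower, where 31.8% and 3.63% of all were. The median log2 change of the 25 was 0.26, equal to that of all tested genes to 2 decimals, and 21 of 25 were positive against 80.6% of all. In 9 of 25 every PGC library lay above every control, where 42.7% of all tested genes did so, and in 1 of 25 every such library lay below, where 5.47% did. The median collagen thus lay where the median gene lay. The lowest adjusted p of any member was 0.085 (limma), shared by Col9a3, Col18a1, Col6a4 and Col8a2. Col9a3, also among the 10 and the 9 counted above, met the filter only through its PGC libraries, so its groups had to be separate.

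The calls rested on single libraries and on how they were weighted. Without replicate 6, and keeping the genes tested with all 6 libraries, 3 of 25 collagens passed as higher (Col18a1, Col6a4 and Col9a3) and 0 as lower, where 8.11% and 0.961% of all tested genes did. Col9a3 had entered the test only through its PGC libraries, so the filter fixed its direction and its call adds no support. Without replicate 5, 2 of 24 passed as higher (Col18a1 and Col6a4) and 0 as lower, beside 3.54% and 0.386% of all. With limma's estimated library weights, whose fit stopped before it converged, 9 of 25 passed as higher, Col9a3 again among them. As lower 1 passed, Col8a2. Of all tested genes 29.7% passed as higher and 3.11% as lower. Leaving out any control, replicate 3 among them, gave 0 calls among collagens and 0 among all genes.

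**Figure D1:**
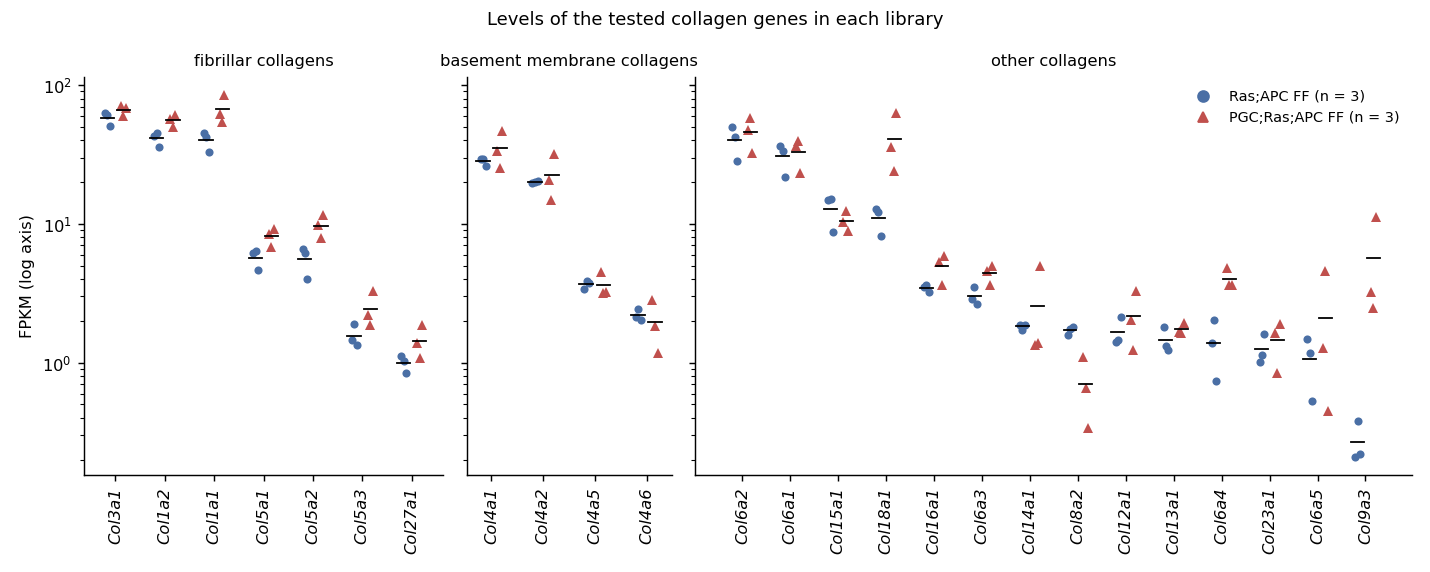
FPKM on a log axis of the 25 tested collagen genes in each library, by class; circles are the 3 Ras;APC FF mice, triangles the 3 PGC mice and short lines the group means. Col3a1, Col1a1, Col1a2 and Col6a2 lie highest, and the groups are separate for Col18a1, Col9a3 and Col8a2 among others.

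The summed FPKM of all 44 members was 356.6, 344.5 and 269.8 in the controls, against 435.5, 388.4 and 504.2 in replicates 4 to 6. The groups did not overlap, with control replicate 3 lowest and replicate 6 highest. Such a sum depends on how libraries are scaled to each other. The median FPKM of all tested genes was likewise higher in every PGC library. That median was 6.54, 6.97 and 6.84 in the controls, against 7.94 and 7.67 in replicates 4 and 5, with replicate 6 highest. The part of that general shift in the collagen sum was not tested. Fibrillar collagens held 46.8%, 47.6% and 48.6% of this sum in the controls, against 48.8%, 47.1% and 48.1% in the PGC mice, a share that overlapped between groups and differed by 0.349 percentage points. Basement membrane collagens held 17.3% ± 2.14 in the controls, against 14.2% ± 2.31 in the PGC mice, and the other types 35.1% ± 3.01 and 37.8% ± 2.94 (SD, n = 3 each), also with overlap. With 1 library left out, the fibrillar difference ranged from -0.079 (without control replicate 1) to 0.81 percentage points (without replicate 5, and likewise without control replicate 3) and was -0.051 without replicate 4. The basement membrane difference ranged from -4.23 to -1.89 (without control replicate 3; -1.92 without replicate 5) and that of the other types from 1.08 to 4.02, lowest without the same libraries. These shares do not depend on how libraries are scaled to each other.

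Of the fibrillar collagens 11 were members and 7 were tested. The log2 change was positive for 7 of 7 tested members and for 80.6% of all tested genes, with a median of 0.43 beside the 0.26 of all tested genes. After median-of-ratios scaling the class median was 0.17, beside -0.0027. None of the 7 passed, and 4 had an unadjusted limma p under 0.05, beside 35.4% of all. Col1a1 and Col5a2 had the largest changes, and Col3a1, the most abundant collagen transcript in the controls, the smallest.

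Col1a1 encodes the chain present as a pair in each type I collagen molecule (chromosome 11, 94936224 to 94953042, plus strand; GENCODE M21, GRCm38, the same assembly as mm10). It was at 44.9, 42.1 and 33.2 FPKM in the controls, against 61.7, 54.6 and 84.6 in replicates 4 to 6. Every PGC library was above every control, replicate 6 most. Its log2 change was 0.71 ± 0.20 (SE; limma adjusted p = 0.0872), or 0.45 above the median of all tested genes, and group means were 40.1 ± 6.09 and 66.9 ± 15.7 FPKM (SD, n = 3), a ratio of 1.67. Col1a2, the partner chain of type I (chromosome 6, 4504814 to 4541544, plus strand), was at 43.1, 45.4 and 35.8 FPKM in the controls, against 57.4, 49.8 and 60.7 in replicates 4 to 6. The groups were again separate, at a smaller distance, with a log2 change of 0.43 ± 0.15 (limma adjusted p = 0.104), or 0.17 above the median of all tested genes. Other scalings gave it smaller values: 0.12 by median of ratios, 0.054 by quantiles and 0.067 by the library total less its 50 most abundant genes.

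Col3a1, the homotrimer that forms mixed fibrils with type I (chromosome 1, 45311538 to 45349706, plus strand), was at 63.3, 60.6 and 50.8 FPKM in the controls, against 71.0, 60.3 and 68.3 in replicates 4 to 6. Here the groups overlapped, since replicate 5 lay below control replicates 1 and 2. The log2 change was 0.19 ± 0.14 (limma adjusted p = 0.338), which is 0.066 less than the median of all tested genes, and it turned to -0.11 after median-of-ratios scaling. Col3a1 made up 17.7%, 17.6% and 18.8% of summed collagen FPKM in the controls, against 16.3%, 15.5% and 13.6% in replicates 4 to 6, without overlap. The share of Col1a1 went the other way, with 12.6%, 12.2% and 12.3% in the controls, against 14.2%, 14.0% and 16.8%.

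Type V collagen is a minor component of type I fibrils that starts their assembly and limits their diameter. Col5a2, whose gene lies tail to tail with Col3a1 at a distance of 24.6 kb (chromosome 1, 45374321 to 45503282, minus strand), was at 6.6, 6.16 and 4.01 FPKM in the controls, against 9.80, 7.86 and 11.5 in replicates 4 to 6. The groups did not overlap and the log2 change of 0.71 ± 0.20 equalled that of Col1a1 (limma adjusted p = 0.089). Its neighbour Col3a1 had no such separation. Col5a1 (chromosome 2, 27886425 to 28039514, plus strand) was at 6.13, 6.34 and 4.67 FPKM in the controls, against 8.45, 6.80 and 9.13 in replicates 4 to 6, also without overlap (log2 change 0.44 ± 0.16, limma adjusted p = 0.11). Other scalings gave Col5a1 less: 0.17 by median of ratios, 0.16 by quantiles and 0.12 by the total less its 50 most abundant genes. Col5a3, the remaining type V chain, had 1.35 to 1.91 FPKM in the controls, against 1.86 to 3.31 in the PGC mice, where replicate 5 fell inside the control range. Col27a1, a fibrillar collagen best known from cartilage, had 0.85 to 1.12 FPKM in the controls, against 1.08 to 1.86 in the PGC mice (log2 changes of Col5a3 and Col27a1 0.41 ± 0.18 and 0.28 ± 0.15, limma adjusted p = 0.148 and 0.216).

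The stretches before the start sites of Col3a1 and Col5a1 are shown because Col5a1 separated the groups in FPKM as deposited and Col3a1 did not. They also differ in base make-up. They are taken from RefSeq's promoter table (GRCm38.p6), from 250 bases before the start site to the base before it, written 5′ to 3′ along the gene. Capitals mark the motifs searched, each on both strands: GGGCGG (the GC box), CCAAT (the CCAAT box), TATAAA (the TATA box), CAGACA (a Smad element), TGANTCA (the AP-1 site) and CTTTGAT (the TCF/LEF element). Col3a1 spans chr1:45311288-45311537 and Col5a1 spans chr2:27886175-27886424.
Col3a1: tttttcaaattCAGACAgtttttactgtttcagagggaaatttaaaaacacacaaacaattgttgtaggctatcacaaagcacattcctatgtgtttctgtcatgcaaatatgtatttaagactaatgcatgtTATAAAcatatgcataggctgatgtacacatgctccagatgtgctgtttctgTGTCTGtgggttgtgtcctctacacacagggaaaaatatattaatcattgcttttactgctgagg
Col5a1: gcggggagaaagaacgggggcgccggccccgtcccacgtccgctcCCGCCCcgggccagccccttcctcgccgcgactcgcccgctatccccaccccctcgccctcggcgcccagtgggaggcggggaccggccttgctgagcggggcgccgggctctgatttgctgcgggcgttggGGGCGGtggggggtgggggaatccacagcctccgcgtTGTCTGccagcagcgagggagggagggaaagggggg
G and C made up 35.2% of the Col3a1 stretch and 76.4% of that of Col5a1. Col3a1 held TATAAA beginning 117 bases before the start site and CAGACA or its reverse complement at 239 and 65 bases, and Col5a1 held GGGCGG or its reverse complement at 205 and 73 bases and the reverse complement of CAGACA at 36. Among 32851 windows of all genes, TATAAA was in 12.4%, GGGCGG in 32.7%, CAGACA in 17.1% and CCAAT in 33.8%. Of the 38 windows found for 35 collagen genes, 5 held TATAAA, 22 GGGCGG, 9 CAGACA and 13 CCAAT, while TGANTCA (6.75% of all) and CTTTGAT (3.21%) were in 1 each. Col1a1, Col2a1, Col4a3, Col5a2, Col9a3, Col12a1, Col14a1, Col22a1 and Col26a1 had no window.

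Markers of fibroblasts overlapped between the groups as a list. The 7 genes (Pdgfra, Dcn, Lum, Dpt, Fbln1, Mfap5, Thy1) summed to 198 to 214 FPKM in the controls, against 173 to 271 in the PGC mice. None was at 0 and 0 of 7 passed. Every PGC library lay above every control for 1 (Pdgfra) and below for 1 (Dpt), where 42.7% and 5.47% of all tested genes did so. Leukocyte genes summed to 10.1 to 14.5 and 14.3 to 34.6 FPKM, mesothelial ones to 0.51 to 4.22 and 3.43 to 8.46, and enteric glial ones to 4.09 to 5.33 and 2.01 to 6.84, each list with overlap and 0 genes past the threshold. The 5 adipocyte genes summed to 26.4 to 35.3 and 9.79 to 10.8 FPKM. In replicates 4 to 6 the sum was mainly Cidec (9.74, 8.83 and 9.64 FPKM), which overlapped with the controls. The other 4 were lower in every PGC library, beside 5.47% of all tested genes, with Plin1 and Lep below the filter. Adipoq and Cfd, 2 of the 5, passed as lower, where 0.0422% of all tested genes did. Adipoq met the filter only through the controls, so its groups could not overlap. The part of these cell types in the fibrillar values was not tested. In bulk tissue, fewer cells of a type and less RNA per cell cannot be told apart.

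**Figure D2:**
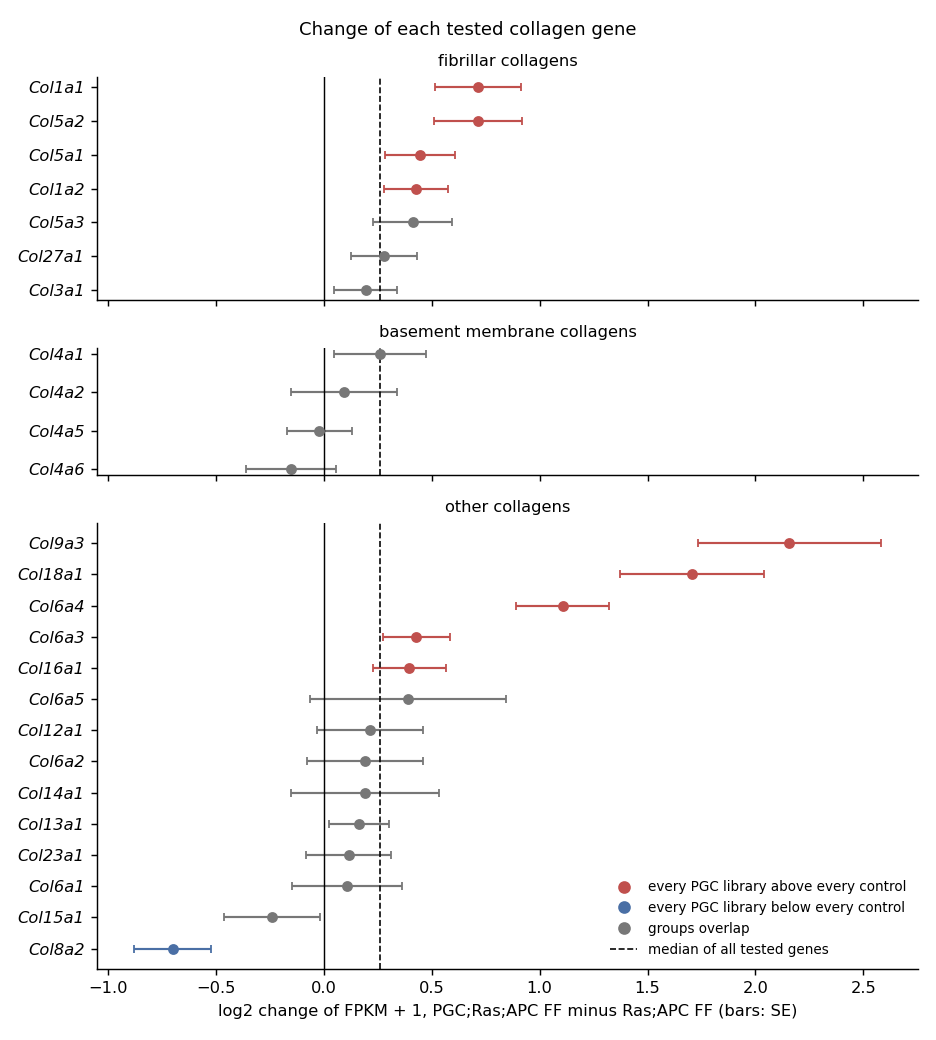
Log2 change of FPKM + 1 (PGC;Ras;APC FF minus Ras;APC FF) of the 25 tested collagen genes with standard errors, by class; the dashed line is the median of all tested genes at 0.26. Red points mark genes with every PGC library above every control (9 genes), blue the reverse (1 gene, Col8a2); none of the 25 passed the adjusted threshold.

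Basement membrane collagens overlapped between genotypes wherever they were tested. Of the 6 collagen IV chains, 4 were tested, 0 passed and 0 had an unadjusted limma p under 0.05, beside 35.4% of all tested genes. The median log2 change of the 4 was 0.037, below the 0.26 of all tested genes. After median-of-ratios scaling it was -0.23. It was -0.014 without replicate 4, 0.009 without control replicate 1, 0.055 without control replicate 2 and 0.19 without replicate 5, so its sign was not settled.

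Col4a1 and Col4a2 encode the ubiquitous network of paired alpha1 and single alpha2 chains. Col4a1 (chromosome 8, 11198423 to 11312826, minus strand) was at 29.1, 29.3 and 26.1 FPKM in the controls, against 33.3, 25.2 and 46.4 in replicates 4 to 6. Col4a2 (chromosome 8, 11312805 to 11449287, plus strand) was at 19.8, 20.1 and 20.2 FPKM in the controls, against 20.6, 15.0 and 32.0 in replicates 4 to 6. For both chains replicate 5 was the lowest and replicate 6 the highest of all libraries, so the PGC mice straddled the controls. The log2 changes were 0.26 ± 0.21 and 0.094 ± 0.24 (limma adjusted p = 0.375 and 0.783), and without replicate 6 they were 0.042 and -0.18. Without replicate 5 they were 0.47 and 0.34. The genes lie head to head, with annotated first exons that overlap by 22 bp on opposite strands, where reads cannot be assigned without strand. The ratio of Col4a1 to Col4a2 lay at 1.29 to 1.68 over the 6 libraries.

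Chains of the other collagen IV networks were rarer. Col4a5 and Col4a6, head to head on the X chromosome at a distance of 1308 bp, form a network typical of smooth muscle basement membranes. Col4a5 had 3.39, 3.91 and 3.76 FPKM in the controls, against 4.53, 3.20 and 3.23 in replicates 4 to 6 (log2 change -0.021 ± 0.15, limma adjusted p = 0.923). Col4a6 had 2.12, 2.43 and 2.04 FPKM in the controls, against 2.85, 1.84 and 1.17 in replicates 4 to 6 (log2 change -0.15 ± 0.21, limma adjusted p = 0.597). Replicate 4 was the highest library for both, and the PGC group lay on both sides of the controls. Col4a3 and Col4a4, the chains of the kidney filter network, lie head to head 71 bp apart on chromosome 1 and stayed under 1 FPKM throughout. Col4a3 was at 0.73, 0.82 and 0.58 FPKM in the controls, against 0.47, 0.48 and 0.13 in replicates 4 to 6, and Col4a4 at 0.30, 0.46 and 0.32 against 0.25, 0.20 and 0.10. Both were lower in every PGC library, at levels below the filter and without a test.

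Of the cell types that carry basement membrane, endothelial markers overlapped between genotypes and smooth muscle and pericyte sums were lower in every PGC library. The 7 endothelial genes summed to 43.2 to 48.0 FPKM in the controls, against 42.2 to 52.2 in the PGC mice, with 0 of 7 past the threshold. All 7 overlapped, where every PGC library lay above every control in 42.7% of all tested genes and below in 5.47%. The 7 smooth muscle genes summed to 1942 to 3509 FPKM in the controls, against 887 to 1300 in the PGC mice, each lower in every PGC library, as were 5.47% of all tested genes, with 0 of 7 past the threshold. The 6 pericyte genes came to 59.9 to 68.6 and 39.1 to 47.9, with 2 of 6 (Rgs5 and Cspg4) lower in every PGC library. None of the 6 passed the threshold. This sum was mainly Rgs5, at 44.83, 46.39 and 51.85 FPKM in the controls, against 20.74, 26.98 and 28.61 in replicates 4 to 6. Pdgfrb, Kcnj8 and Notch3 had positive log2 changes (0.50, 0.28 and 0.10) and Abcc9 a negative one (-0.41), each with overlap. No gene of these lists was at 0 in all libraries. Their part in the collagen IV values was not tested.

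The multiplexins are basement membrane zone collagens whose helix is broken by many interruptions and whose C-terminal ends can be released as endostatin (type XVIII) and a related fragment (type XV). Col18a1 was higher in every PGC library, and Col15a1 overlapped. Col18a1 (chromosome 10, 77052178 to 77166548, minus strand), a heparan sulphate proteoglycan under epithelia and endothelia, was at 12.9, 12.1 and 8.25 FPKM in the controls, against 35.7, 24.0 and 63.1 in replicates 4 to 6. The lowest PGC library was above the highest control by a wide gap, and replicate 6 was the highest. Group means were 11.1 ± 2.48 and 40.9 ± 20.1 FPKM (SD, n = 3), a ratio of 3.69, and the log2 change of 1.71 ± 0.33, which is 1.45 above the median of all, ranked 117 of 11857 tested genes (limma adjusted p = 0.085). Without replicate 6 the log2 change was 1.35 and limma's adjusted p 0.0324, and without replicate 5 it was 2.03 with 0.0133, so Col18a1 passed in either case. Over the 16 alternatives its log2 change lay between 1.35 and 2.03 and its limma adjusted p between 0.00264 and 0.246.

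Col15a1 (chromosome 4, 47208161 to 47313167, plus strand), found in basement membrane zones of vessels and muscle, was at 14.8, 15.1 and 8.70 FPKM in the controls, against 10.3, 12.4 and 8.93 in replicates 4 to 6. The groups overlapped through control replicate 3, the lowest library, and the log2 change was -0.24 ± 0.22 (limma adjusted p = 0.433). Col18a1 made up 3.40% ± 0.296 of summed collagen FPKM in the controls, against 8.95% ± 3.24 in the PGC mice, and Col15a1 3.92% ± 0.612 and 2.44% ± 0.710 (SD, n = 3). In both cases the groups were separate, in opposite directions.

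Epithelial markers were also higher in every PGC library. Epcam, Cdh1, Krt8, Krt18 and Krt19 summed to 2425, 2789 and 2821 FPKM in the controls, against 4128, 4634 and 6254 in replicates 4 to 6, with 0 of 5 past the threshold and 5 of 5 higher in every PGC library, as were 42.7% of all tested genes. The part of epithelial content in the Col18a1 values was not tested. RefSeq lists 2 start sites of Col18a1 in its promoter table, and gene-level FPKM do not tell their transcripts apart.

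The stretch before the more distal start site of Col18a1 is shown as that of the most separated abundant member, and that of Col8a2 as the one tested member lower in every PGC library. Both end at the base before the first annotated exon base and use the same capitals. Col18a1 spans chr10:77166549-77166780 on the minus strand and Col8a2 spans chr4:126286544-126286792 on the plus strand.
Col18a1: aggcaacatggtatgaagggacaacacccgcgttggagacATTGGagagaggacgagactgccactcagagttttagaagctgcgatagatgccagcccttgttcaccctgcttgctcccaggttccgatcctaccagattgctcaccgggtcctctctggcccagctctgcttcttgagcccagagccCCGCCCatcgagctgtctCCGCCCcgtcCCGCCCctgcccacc
Col8a2: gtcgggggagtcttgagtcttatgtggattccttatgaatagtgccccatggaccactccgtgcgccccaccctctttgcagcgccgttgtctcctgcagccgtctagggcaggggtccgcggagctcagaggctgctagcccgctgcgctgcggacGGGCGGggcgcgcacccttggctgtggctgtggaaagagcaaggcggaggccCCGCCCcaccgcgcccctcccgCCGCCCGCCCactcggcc
Col18a1 held the reverse complement of CCAAT at 210 bases and that of GGGCGG at 61, 43 and 33 bases before its RefSeq start site. Col8a2 held GGGCGG on one strand or the other at 93, 41, 19 and 15 bases, the last pair sharing bases. Both stretches held GGGCGG, as did 22 of the 38 collagen windows and 32.7% of all windows, and neither held TATAAA. The window before the other Col18a1 start site held no GGGCGG. A match describes letters only and shows no binding.

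Beaded filament collagens of type VI, which tie cells and fibrils together, overlapped between genotypes in the abundant chains and were separate in some rare ones. Of 6 members 5 were tested, 0 passed, and the median log2 change was 0.39. Every PGC library lay above every control in 2 of 5 (Col6a3 and Col6a4), where 42.7% of all tested genes did so. Col6a1 and Col6a2, 85.2 kb apart in the same direction on chromosome 10, were at 36.7, 33.7 and 21.8 FPKM and at 49.98, 42.0 and 28.4 in controls, and at 36.5, 39.6 and 23.4 and 47.4, 58.1 and 32.4 in replicates 4 to 6. Both were lowest in replicates 3 and 6, their ratio stayed at 0.681 to 0.802, and the groups overlapped (log2 changes 0.11 ± 0.26 and 0.19 ± 0.27, limma adjusted p = 0.764 and 0.604). Col18a1, 326 kb from Col6a1 on the same strand, had no such overlap. Col6a3, the long chain of the classical molecule, was at 2.87, 3.50 and 2.63 FPKM in the controls, against 4.57, 3.60 and 5.01 in replicates 4 to 6, separate by a narrow gap (log2 change 0.43 ± 0.16, limma adjusted p = 0.108).

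Col6a4, Col6a5 and Col6a6 are alternatives to it and lie in a row on chromosome 9. Col6a4 (105989454 to 106096783, minus strand) was at 1.38, 2.04 and 0.74 FPKM in the controls, against 4.84, 3.61 and 3.66 in replicates 4 to 6. The groups were well apart, and replicate 6 did not lead, unlike for Col1a1 or Col18a1. Means were 1.39 ± 0.650 and 4.04 ± 0.696 FPKM (SD, n = 3), a ratio of 2.91, with a log2 change of 1.11 ± 0.22, or 0.85 above the median of all tested genes (limma adjusted p = 0.085). Without replicate 6 the log2 change was 1.16 with a limma adjusted p of 0.0367, without replicate 5 it was 1.17 with 0.0442, and over the 16 alternatives the adjusted p lay between 0.00385 and 0.246. Col6a5 was at 1.48, 1.18 and 0.53 FPKM in the controls, against 1.28, 4.61 and 0.45 in replicates 4 to 6, so that replicate 5 alone carried its positive change (log2 change 0.39 ± 0.45, limma adjusted p = 0.531), which was -0.15 without that library. Col6a6 was at 0.02 FPKM or less in every library.

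Fibril-associated collagens bind to the surface of fibrils. Of 9 members 4 were tested, 0 passed, and the median log2 change was 0.31. Col9a3 (chromosome 2, 180597790 to 180622189, plus strand), one of the type IX chains known from cartilage, was at 0.21, 0.38 and 0.22 FPKM in the controls, against 3.25, 2.47 and 11.3 in replicates 4 to 6. It had the largest change of any collagen, a log2 change of 2.16 ± 0.42 that ranked 73 of 11857 (limma adjusted p = 0.085; 0.0483 with a pseudocount of 0.1). As all controls were under 1 FPKM, it entered the test only through the PGC libraries, so it had to differ: the filter itself required groups without overlap. Keeping the genes tested with all 6 libraries, the log2 change without replicate 6 was 1.60 (limma adjusted p = 0.00369). Since the filter chose the gene on these values, none of these p supports its change. Its annotated exons share 234 bp with Tcfl5 on the opposite strand, which was at 0.04 FPKM or less in every library.

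The partner chains of type IX were below the filter. Col9a1 was at 0.03, 0 and 0 FPKM in the controls, against 0.37, 0.11 and 2.44 in replicates 4 to 6, and Col9a2 at 0.39, 0.22 and 0.47 against 0.80, 0.27 and 1.73. In replicates 4 to 6 the chains were highest in replicate 6 and lowest in replicate 5, as was Col9a3. Col16a1, which binds fibrils at the edges of smooth muscle and vessels, was at 3.50, 3.62 and 3.24 FPKM in the controls, against 5.34, 3.63 and 5.85 in replicates 4 to 6, separate by 0.01 FPKM (log2 change 0.40 ± 0.17, limma adjusted p = 0.141). Col12a1, of dense connective tissue, and Col14a1, a relative of it, overlapped between groups. Col14a1 was at 1.73 to 1.88 FPKM in controls, 1.34 and 1.38 in replicates 4 and 5, but 5.01 in the remaining PGC library, replicate 6, and its log2 change of 0.19 ± 0.34 became -0.26 without replicate 6. Col12a1 ranged from 1.41 to 2.15 FPKM in the controls, against 1.23 to 3.31 in the PGC mice (log2 change 0.21 ± 0.24, limma adjusted p = 0.522).

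Of 3 short-chain network collagens 1 was tested. Col8a2, a chain of the hexagonal lattice of subendothelial and corneal membranes (chromosome 4, 126286793 to 126314330, plus strand), was at 1.58, 1.76 and 1.82 FPKM in the controls, against 1.10, 0.66 and 0.34 in replicates 4 to 6. It was the only tested collagen lower in every PGC library, with a log2 change of -0.70 ± 0.18, or -0.96 relative to the median of all (limma adjusted p = 0.085). Replicate 6 was lowest. Its partner Col8a1 was above every control in replicates 4 and 6 and below them in replicate 5, with 0.93, 0.88 and 0.89 FPKM in controls, 1.07 and 0.43 in replicates 4 and 5, and 4.64 in replicate 6. It did not pass the filter. Col10a1, the collagen of growth plate cartilage, was at 0.02 FPKM or less in the controls, against 0.29, 0.07 and 1.43 in replicates 4 to 6. Its exons share 18 bp with Nt5dc1 on the opposite strand, which was at 6.17 to 7.70 FPKM.

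Transmembrane collagens were low. Col13a1, at cell contacts and neuromuscular junctions, was at 1.82, 1.33 and 1.24 FPKM in the controls, against 1.67, 1.63 and 1.94 in replicates 4 to 6, and Col23a1 at 1.01, 1.13 and 1.61 against 1.64, 0.85 and 1.90. Both overlapped, with log2 changes of 0.16 ± 0.14 and 0.11 ± 0.20 (limma adjusted p = 0.394 and 0.678). Col25a1 stayed under 0.5 FPKM. Col17a1, the hemidesmosome collagen of stratified epithelia, was at 0.02 FPKM or less in every library, and the anchoring fibril gene Col7a1 at 0.23 to 0.39. The squamous markers Krt5, Krt14 and Trp63 were at 0.22 FPKM or less. The sum of the 6 squamous genes, mainly Krt13, was 0.25 to 0.90 FPKM in the controls, against 2.68 to 5.44 in the PGC mice. Krt6a and Krt13, 2 of the 6, were higher in every PGC library. So were 42.7% of all tested genes and 13.9% of those below the filter. Krt13 met the filter only through the PGC libraries, so its groups could not overlap.

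**Figure D3:**
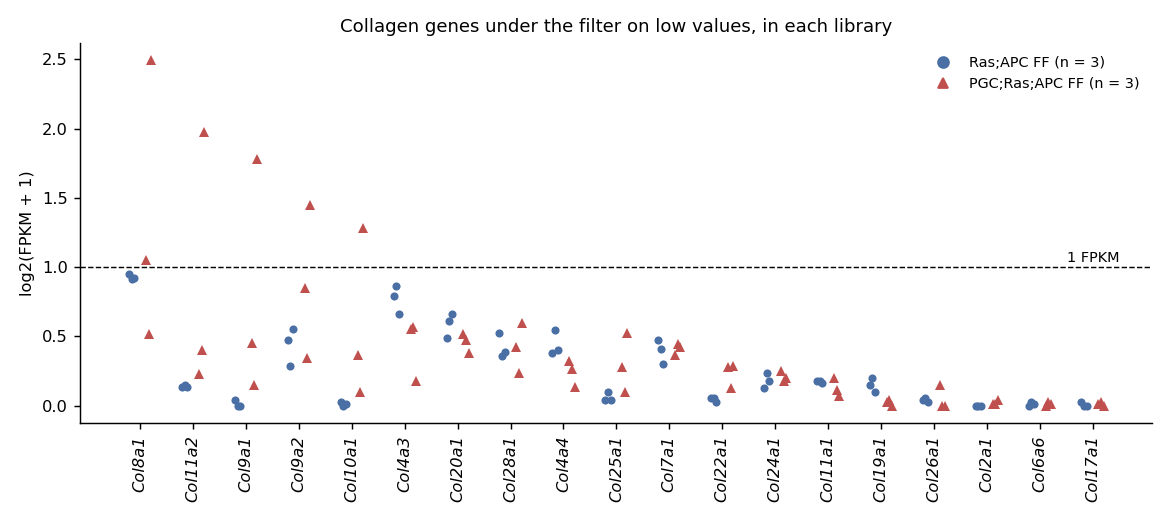
Levels as log2(FPKM + 1) of the 19 collagen genes under the filter in each library, ordered by their highest value; circles are Ras;APC FF, triangles PGC;Ras;APC FF, and the dashed line is 1 FPKM. For Col8a1, Col11a2, Col9a1, Col9a2 and Col10a1 the triangle of replicate 6 lies above 1 FPKM and is the highest point.

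Below the filter stood 19 members, of which 14 were under 1 FPKM in every library. Of the 19, 5 were higher in every PGC library (Col2a1, Col9a1, Col10a1, Col11a2 and Col22a1) and 3 lower in each (Col4a3, Col4a4 and Col19a1), with no test. Of all 7131 genes below the filter, 13.9% were higher and 5.95% lower in every PGC library. Col11a2, a fibrillar chain of cartilage and inner ear, was at 0.10, 0.11 and 0.10 FPKM in the controls, against 0.17, 0.32 and 2.93 in replicates 4 to 6. Col22a1, of tissue junctions, was at 0.02 to 0.04 FPKM in the controls, against 0.09 to 0.22 in the PGC mice, and Col19a1 at 0.07 to 0.15 and 0.03 or less. Col2a1, the main cartilage collagen, was listed at 0 in each control and reached 0.01, 0.01 and 0.03 FPKM in replicates 4 to 6. Col11a1, Col24a1, Col20a1, Col26a1 and Col28a1 overlapped between groups at 0.58 FPKM or less. Values this low rest on few fragments and were deposited with 2 decimals.

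Ratios of chains within a library do not depend on library scaling, and they were chosen after the values were seen, so they are given without a test. The Col1a1 to Col3a1 ratio was 0.710, 0.694 and 0.655 in the controls, against 0.868, 0.904 and 1.24 in replicates 4 to 6. That of Col1a2 to Col3a1 was 0.680, 0.749 and 0.706 against 0.808, 0.826 and 0.888, and that of Col5a2 to Col3a1 was 0.0790 to 0.104 against 0.130 to 0.169. In each of the 3 the groups were separate, with Col1a1, Col1a2 and Col5a2 higher relative to Col3a1 in every PGC mouse. Col1a1 to Col1a2 was 1.043, 0.926 and 0.928 in the controls, against 1.08, 1.10 and 1.39 in replicates 4 to 6, separate by a narrow gap.

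The ratio of Col18a1 to Col15a1 was 0.873, 0.802 and 0.948 in the controls, against 3.48, 1.94 and 7.06 in replicates 4 to 6. Set against Col4a1, Col18a1 was at 0.442, 0.413 and 0.316 in the controls, against 1.07, 0.950 and 1.36 in replicates 4 to 6. Among basement membrane zone genes, Col18a1 thus was below Col4a1 in every control and near or above it in every PGC library. Pairs whose chains share a molecule varied. Col5a1 to Col5a2 was 0.929, 1.03 and 1.17 in the controls, against 0.862, 0.865 and 0.791, lower in every PGC library, and Col1a1 to Col1a2 was higher as given above. By contrast, 2 pairs overlapped: Col4a1 to Col4a2 lay at 1.41 ± 0.10 and 1.59 ± 0.120, and Col6a1 to Col6a2 at 0.768 ± 0.0339 and 0.725 ± 0.0449 (SD, n = 3).

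**Figure D4:**
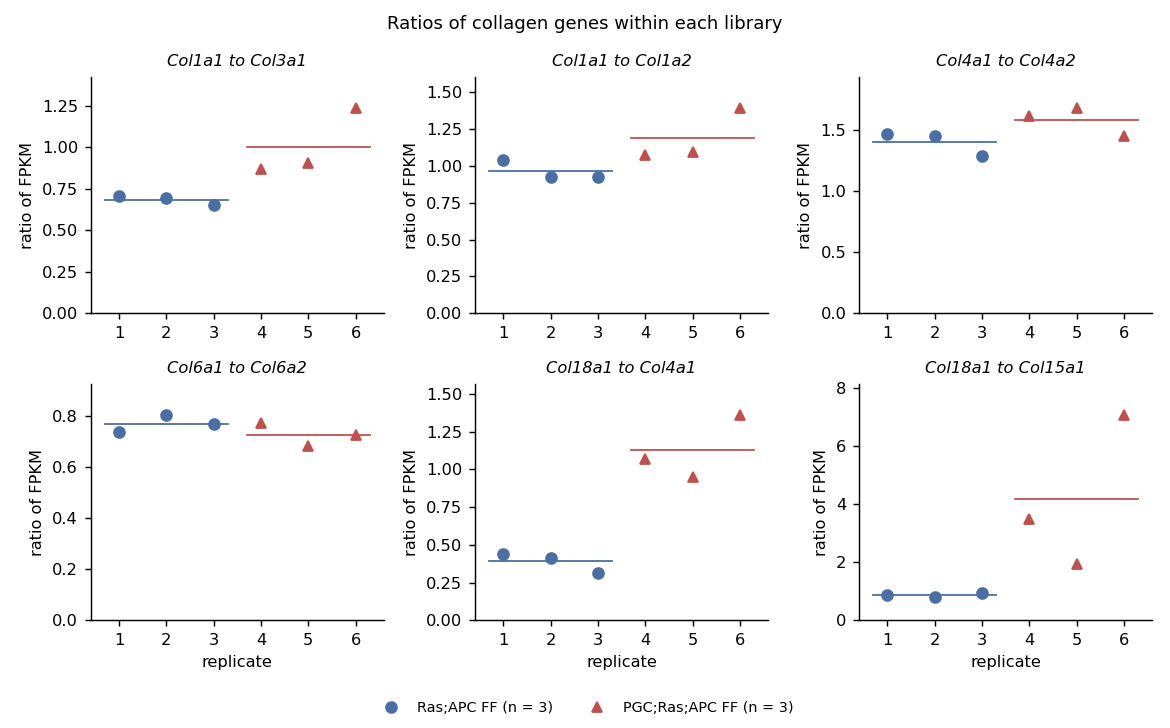
Ratio of FPKM of 6 pairs of collagen genes in each library, with replicates 1 to 3 (circles, Ras;APC FF) and 4 to 6 (triangles, PGC;Ras;APC FF) on the x axis and group means as lines. Col1a1 to Col3a1, Col1a1 to Col1a2, Col18a1 to Col4a1 and Col18a1 to Col15a1 are separate between genotypes, while Col4a1 to Col4a2 and Col6a1 to Col6a2 overlap.

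Genes that make, cut, cross-link and bind collagen were read from a list set by role, of which 43 were in the table and 31 were tested. None passed (limma, 0 of 31 in either direction), 12 had an unadjusted limma p under 0.05 against 35.4% of all tested genes, and 13 were higher in every PGC library against 42.7%. Lower in each was 1, against 5.47%: P3h2, a prolyl 3-hydroxylase named after its values were seen, at 1.47, 1.34 and 2.20 FPKM in the controls and 1.26, 0.74 and 0.74 in replicates 4 to 6 (log2 change -0.48 ± 0.18, limma adjusted p = 0.11). Without replicate 6, keeping the genes tested with all 6 libraries, 4 passed as higher (Ppib, Ddr1, Colgalt1 and Plod3) and 0 as lower, beside 8.11% and 0.961% of all tested genes.

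Among 17 tested genes of chain hydroxylation and folding the median log2 change was 0.35. P4hb, the protein disulfide isomerase that doubles as the beta subunit of prolyl 4-hydroxylase, was at 262, 292 and 347 FPKM in the controls, against 426, 395 and 526 in replicates 4 to 6 (log2 change 0.58 ± 0.19, limma adjusted p = 0.0977). Ppib, a proline isomerase of the collagen prolyl 3-hydroxylation complex, was at 253, 250 and 245 FPKM in the controls, against 342, 385 and 372 in replicates 4 to 6 (log2 change 0.55 ± 0.15, limma adjusted p = 0.0853). Both also fold many other secreted proteins, and both separated the groups. Serpinh1, the collagen-specific chaperone HSP47, overlapped, with 40.2 to 57.9 FPKM in the controls, against 49.2 to 75.0 in the PGC mice (log2 change 0.34, limma adjusted p = 0.262). The largest changes of this role were in the glycosylation enzymes of hydroxylysine: Colgalt1 was at 12.1, 12.7 and 12.1 FPKM and 18.4, 16.5 and 41.0, and Plod3 at 10.3, 9.45 and 8.88 and 14.4, 13.6 and 24.2 (log2 changes 0.87 ± 0.31 and 0.76 ± 0.22, limma adjusted p = 0.107 and 0.0883). Each was separate between genotypes.

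The 3 tested genes of propeptide cleavage were Bmp1, the C-propeptidase, at 2.61 to 2.98 FPKM in the controls, against 3.10 to 8.45 in the PGC mice (log2 change 0.68, limma adjusted p = 0.131), its enhancer Pcolce, and the N-propeptidase Adamts2. Pcolce and Adamts2 had log2 changes of 0.21 and -0.13 and overlapped. Of 5 tested cross-linking genes, Tgm2, the tissue transglutaminase, had the largest change: 34.5, 25.0 and 26.1 FPKM in the controls, against 72.4, 41.8 and 89.2 in replicates 4 to 6 (log2 change 1.17 ± 0.28, limma adjusted p = 0.085). The lysyl oxidase Lox was at 1.81, 1.86 and 1.64 FPKM in the controls, against 3.26, 2.15 and 5.69 in replicates 4 to 6, separate as well (log2 change 0.69 ± 0.26, limma adjusted p = 0.111). Loxl1 and Loxl2 overlapped, with log2 changes of 0.092 and 0.55. Without replicate 5, Tgm2, Lox and Loxl2 passed (limma adjusted p = 0.0144, 0.0491 and 0.0413), where 3.54% of all tested genes passed as higher.

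Of 6 tested receptors, the collagen receptor kinase Ddr1, mainly of epithelia, was at 42.4, 48.0 and 41.0 FPKM in the controls, against 60.9, 60.5 and 71.7 in replicates 4 to 6 (log2 change 0.54 ± 0.14, limma adjusted p = 0.085). Ddr2, its mesenchymal counterpart, named after its values were seen, was at 4.42, 4.91 and 6.46 FPKM and 4.85, 3.41 and 3.03 (log2 change -0.40 ± 0.19, limma adjusted p = 0.167). The sisters thus had opposite signs, with separate groups for Ddr1 and overlapping ones for Ddr2. Adgrg1, an adhesion receptor that binds type III collagen, was at 37.8 to 46.5 FPKM in the controls, against 51.8 to 84.5 in the PGC mice, and the integrin subunit Itgb1 at 59.4 to 61.9 and 64.6 to 86.3 (log2 changes 0.57 and 0.28). Itga2, the alpha subunit of an epithelial and platelet collagen integrin, also named after its values were seen, did not pass the filter, with 0.11, 0.12 and 0.10 FPKM in the controls, against 1.28, 0.68 and 4.45 in replicates 4 to 6.

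**Figure D5:**
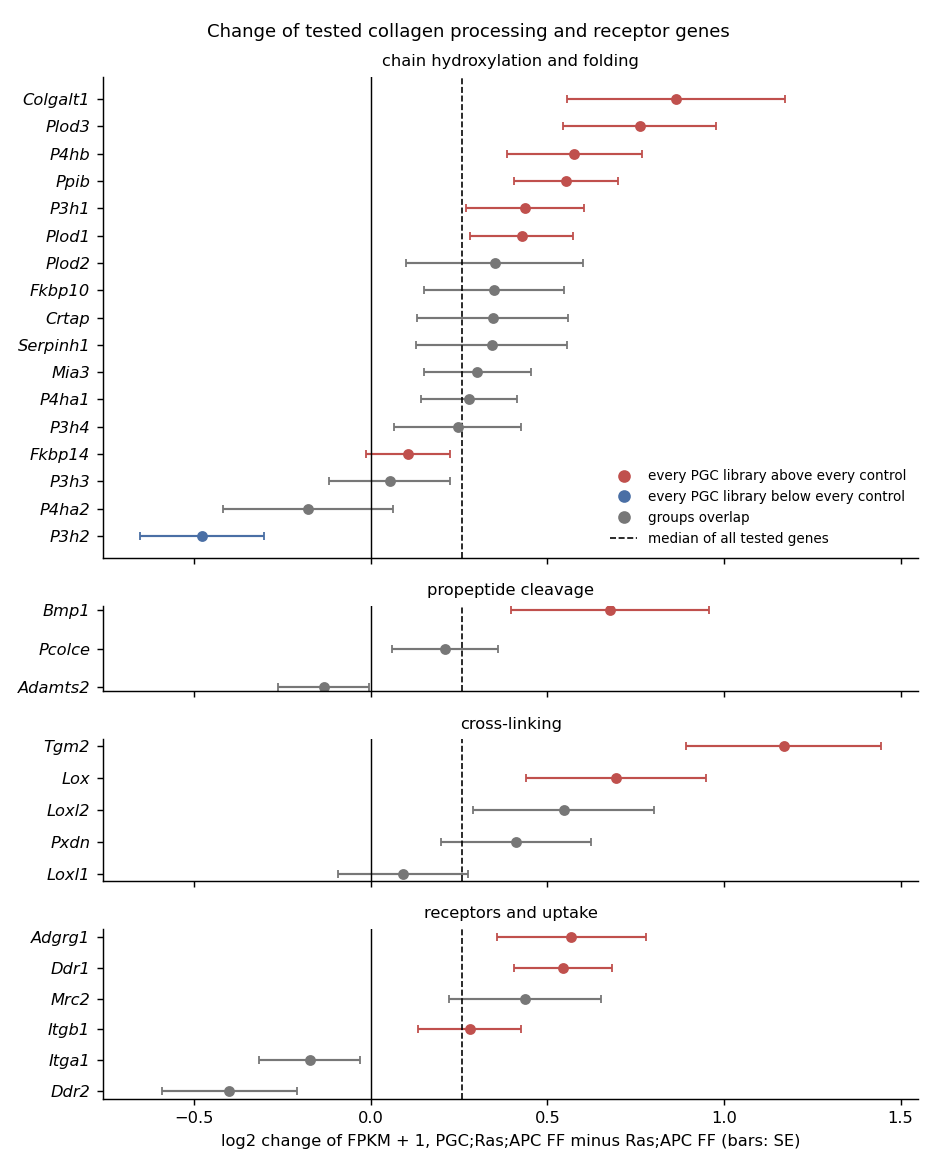
Log2 change of FPKM + 1 (PGC;Ras;APC FF minus Ras;APC FF) with standard errors of the 31 tested genes of collagen processing and reception, by role; the dashed line is the median of all tested genes at 0.26 and colours mark separate groups as for the collagens. Tgm2 and Colgalt1 lie farthest to the right, and none of the 31 passed the adjusted threshold.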

How the data were processed

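RNA from the corpus of 6 mice was extracted on silica columns with DNase digestion and sequenced at BGI, per the labels' protocols. STAR, featureCounts and mm10 are named in the submitters' processing notes. Not given in the sources used here: versions, annotation, strandedness and how FPKM were formed. The authors deposited FPKM rounded to 2 decimals.

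Values were tested as log2(FPKM + 1) for genes with at least 1 FPKM in at least 3 libraries, with genotype as the 1 term in limma 3.58.1 (R 4.3.3, eBayes with trend, 7.72 degrees of freedom with the prior). The test was checked on simulated data in which no library stood apart, so that check does not cover libraries that do. Depth cannot be read from FPKM, so no count test was run, and log2 changes understate the change of low genes. Collagen classes and partner lists were set by textbook role, all partners past the threshold were to be named, and otherwise per role the 3 most abundant and the 2 with the largest change. The members and lists were chosen with earlier results of these data known. Nothing says more of the replicates than that each is 1 mouse. Coordinates are from GENCODE M21 by symbol (44 of 44 matched), promoter stretches from RefSeq. Alternatives changed the pseudocount, filter, scaling, weights, trend and libraries.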

Additional observations from a re-analysis of the deposited data

How the results depend on the processing

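No paired analysis was possible because the groups share no replicate numbers. Without each library in turn, the number of collagen genes passing as higher ranged from 0 to 2, or 3 without replicate 6 when the genes tested with all 6 libraries were kept (a setting added after seeing the data), and that of lower ones was 0. For processing and receptor genes the range was 0 to 4 higher. A pseudocount of 0.1 gave 1 collagen (Col9a3), whose direction the filter had fixed. Estimated library weights, whose fit stopped before convergence, gave 9 collagens higher and 1 lower and 13 processing and receptor genes higher, among 3523 and 369 genes in all, and the cause was not tested. Of all genes, 13 were higher and 5 lower, against 9 and 10 with median-of-ratios scaling, 10 and 13 with quantile normalization and 12 and 10 with the total without the 50 most abundant genes. The fibrillar, basement membrane and other class medians were 0.17, -0.23 and -0.013 with median-of-ratios scaling, 0.16, -0.24 and -0.015 with quantile normalization, and 0.12, -0.28 and -0.049 with that reduced total, beside all-gene medians of -0.0027, -0.017 and -0.052. The basement membrane median was 0.14 with library weights and -0.086 with no filter. With a library left out, Col4a1 ranged from 0.042 to 0.47.

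Some signs turned. Under median-of-ratios, quantile and reduced-total scaling, in that order, Col3a1 was at -0.11, -0.18 and -0.17, Col6a2 at -0.11, -0.19 and -0.17, and Col6a1 at -0.19, -0.24 and -0.25. Col4a1 was at -0.040, -0.075 and -0.096, Col4a2 at -0.20, -0.22 and -0.26, Col14a1 at -0.032, -0.042 and -0.073, Col13a1 at -0.030, -0.025 and -0.067, and Col23a1 at -0.068, -0.087 and -0.097. Col12a1 was at -0.0053 and -0.030 under the last pair. With library weights Col4a2 was at -0.041, Col4a5 at 0.15, Col4a6 at 0.14 and Col14a1 at -0.23. With a library left out, log2 changes ranged from -0.18 to 0.34 for Col4a2, -0.15 to 0.047 for Col4a5 (0.042 without replicate 6), -0.36 to 0.051 for Col4a6, -0.26 to 0.42 for Col14a1, -0.030 to 0.45 for Col12a1, -0.017 to 0.31 for Col23a1, -0.12 to 0.33 for Col6a1, -0.034 to 0.42 for Col6a2 and -0.15 to 0.82 for Col6a5. Col1a1, Col1a2, Col5a1, Col5a2, Col5a3, Col27a1, Col6a3, Col6a4, Col16a1, Col18a1, Col9a3, Col15a1 and Col8a2 had the same sign under every alternative run that tested them. For Col9a3 this adds no support, since it met the filter only through its PGC libraries, which fixed its sign. Absolute depth is unknown, which limits what can be said of genes under 1 FPKM.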

Other observations

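Genes of cartilage matrix, a list of 15 drawn up after the values of the type IX, X and XI collagens were seen, had 11 members in the table. Of these, 3 were higher and 3 lower in every PGC;Ras;APC FF library. Only Sox9, Chad and Cytl1 met the filter. Higher and lower in every such library were 42.7% and 5.47% of all tested genes, and 13.9% and 5.95% of the genes below the filter. Of the 11, 5 were highest in replicate 6, as were 68.4% of all tested genes. That last share was not counted for genes below the filter. Comp, a matrix protein that binds collagen fibrils, was at 0.07, 0.16 and 0.14 FPKM in the controls, 0.28 and 0.23 in replicates 4 and 5, and 8.86 in replicate 6. Chad, a leucine-rich repeat protein of cartilage, had 17.4, 16.6 and 14.4 FPKM in the controls and 25.7, 27.0 and 57.3 in the PGC;Ras;APC FF mice. Acan, the cartilage proteoglycan aggrecan, was listed at 0 in each control and at 0.35 FPKM or less in the others. Epyc, a small proteoglycan, was the reverse, with 0.26 to 0.35 FPKM in the controls and 0 in replicates 4 to 6. Sox9, a transcription factor of cartilage and of gut epithelium, overlapped in replicates 4 and 5 (15.3 and 17.0 FPKM, controls 8.71 to 19.4) and was at 50.7 in replicate 6. The list thus had members in both directions and no test was run on it.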
